A study of Homo sapiens with 12 samples.

Results

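The cytosolic ribosomal protein genes encode the protein components of the ribosome that translates nuclear mRNAs. In the deposited tables they were taken as the coding (NM_) intervals on autosomes and chromosome X whose gene name is RPL or RPS with a number, together with RPLP0, RPLP1, RPLP2 and RPSA and without RPS27A. The rule gave 83 genes on 104 intervals, of 18651 coding genes in all: 43 of the large subunit, 30 of the small subunit, 3 of the P stalk and 7 paralogs. The rule uses gene name, transcript type and position alone, but it was set with earlier results of these data known. Of the 83 genes, 81 passed the filters of every test. The other 2, RPL10L and RPL3L, had 0 reads in all 12 libraries.

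All libraries came from 22Rv1, an established human prostate cancer cell line, edited so that its SF3B1, a core protein of the U2 snRNP, carries C1111S. The groups were PladB at 10 nM, WX-02-23 at 20 µM, WX-02-43 at 20 µM and DMSO at 0.1%, with 3 libraries each. The 3 h of compound were followed by 1 h of 4-thiouridine at 100 µM, which labels newly made RNA. PladB is pladienolide B, an inhibitor of splicing that binds SF3B1. The labels call both WX compounds stereoprobes. Every group, DMSO included, carries the edited SF3B1, and no unedited cells were analysed here. The labels do not say whether the edited line is 1 clone. They also leave unsaid whether a group's 3 libraries are separate cultures; the p-values then measure only the spread among these libraries, which may be technical. Iodoacetamide turns the label into T>C conversions at reverse transcription, and the libraries were made from the 3′ ends of mRNAs (SLAM-seq). Coding genes held between 12333255 and 21417549 reads per library, and between 826774 and 2094424 of these were T>C reads. The prostate luminal markers FOXA1 and KRT8 averaged 516 and 361 CPM in DMSO, and the basal markers KRT5 and TP63 had 0 reads in all 12 libraries.

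Ribosomal protein genes are among the most highly transcribed genes of any dividing cell. Their mRNAs are stable, short and intron-containing, and most begin with a C followed by a run of pyrimidines. This terminal oligopyrimidine (TOP) tract places their translation under mTOR through LARP1, a protein that binds it. Proteins made in excess of assembly are rapidly degraded, and free RPL5 and RPL11, bound to 5S rRNA, are known for holding back MDM2 and so stabilising p53.

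The promoter starts of 11 members are shown because this start of the transcript is the feature that the family shares. RefSeq promoters (GRCh38.p14) were found for 66 of the 83 genes. The 30 bases run from 10 before the annotated start, 5′ to 3′ on the gene's strand. Capitals mark the run that opens with a C at the start, or within 5 bases of it, and goes on with at least 4 letters that are C or T.
RPS3: cgagccaCTTCCTTTCCTTTCagcggagcg
RPL38: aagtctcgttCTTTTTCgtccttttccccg
RPL35A: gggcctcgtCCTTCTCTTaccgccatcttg
RPS21: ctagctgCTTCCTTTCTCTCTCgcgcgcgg
RPS24: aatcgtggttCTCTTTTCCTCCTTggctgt
RPS16: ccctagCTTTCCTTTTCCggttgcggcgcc
RPL41: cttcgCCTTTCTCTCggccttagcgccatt
RPLP0: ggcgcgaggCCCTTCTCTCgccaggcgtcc
RPL22L1: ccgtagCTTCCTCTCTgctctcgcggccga
RPS27L: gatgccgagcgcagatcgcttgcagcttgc
RPL7L1: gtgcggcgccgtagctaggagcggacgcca
The windows lie at chr11:75399508-75399537 for RPS3, chr17:74203668-74203697 for RPL38, chr3:197950180-197950209 for RPL35A, chr20:62387093-62387122 for RPS21 and chr10:78033853-78033882 for RPS24, all on the plus strand. On the same strand are those of RPL41 at chr12:56116623-56116652 and RPL7L1 at chr6:42879606-42879635. The minus-strand windows are chr19:39435930-39435959 for RPS16, chr12:120201092-120201121 for RPLP0, chr3:170870176-170870205 for RPL22L1 and chr15:63157458-63157487 for RPS27L. Only the transcribed direction was searched. The first 9 sequences hold such a run, while the paralogs RPS27L and RPL7L1 hold none in the window searched. Over the family, 53 of 66 genes had a run at 1 of their annotated starts (80.3%), against 4022 of 14043 other coding genes (28.6%). By subunit these were 30 of 35 large-subunit genes, 19 of 23 small-subunit genes and all 3 P stalk genes, but 1 of 5 paralogs. Mitochondrial ribosomal protein genes, which serve the separate ribosome of mitochondria, had one in 16 of 69 (23.2%). A match describes these letters only.

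In every library the 83 genes together took a large part of the sequencing. They held 11.6%, 12.2% and 11.05% of coding reads in PladB, 9.29%, 9.25% and 9.15% in WX-02-23, and 9.42%, 8.97% and 9.06% in WX-02-43, against 8.75%, 9.15% and 9.62% in DMSO. All 3 PladB libraries lay above every other library, and the libraries of both WX compounds lay within the DMSO range. Of T>C reads the family held 7.43% ± 0.578 in PladB, 4.22% ± 0.0241 in WX-02-23 and 4.27% ± 0.0955 in WX-02-43, against 4.01% ± 0.310 in DMSO (SD, n = 3 each). These are parts of a library, and in a bulk sample fewer cells and less RNA per cell cannot be told apart.

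**Figure D1:**
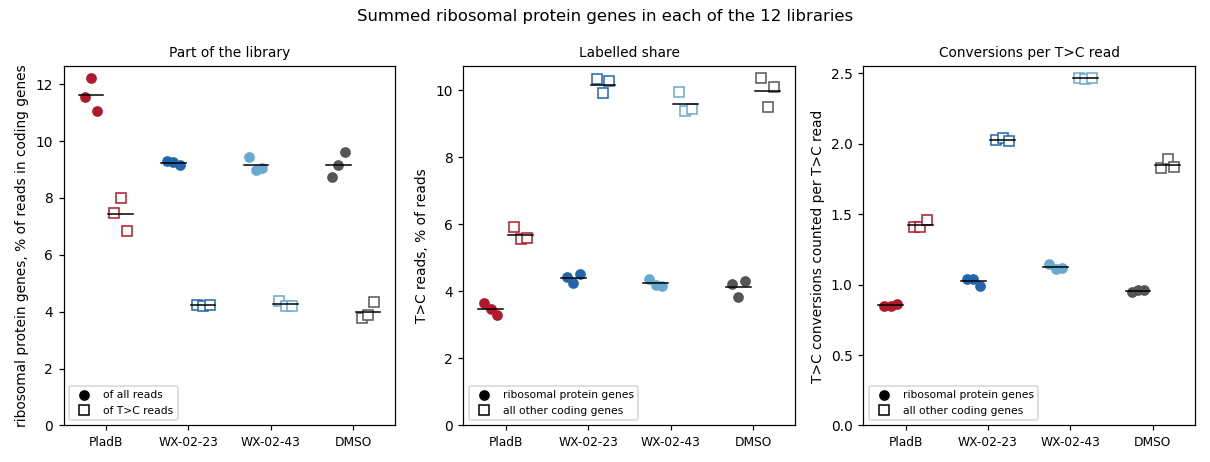
Summed ribosomal protein genes in each of the 12 libraries, by group: their percent of coding reads and of T>C reads (left), the labelled share of their reads and of all other coding genes' reads (middle), and conversions counted per T>C read (right); points are libraries and lines are means. PladB stands apart in all 3 panels, with 11.6% of reads, against 9.17% in DMSO (means).

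Read numbers within the family differed widely, in libraries that read 1 end of each transcript. In DMSO the most reads fell on RPS28, of the mRNA exit channel, with a mean of 76750 reads per library. Also among the 5 with most reads were RPL41, the smallest protein of the ribosome, with 60583, RPLP0 with 52764 and RPL30 with 46243. The fewest, beyond the 2 genes without reads, fell on the paralog RPL39L with 480 reads, RPL12, at the base of the stalk, with 913, and the paralog RPL26L1 with 991. The median over the 81 genes was 14302 reads, against 401 over the 13178 coding genes tested.

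The intervals that were counted set limits on these genes. They cover the annotated 3′ UTR, and these are short: the median was 73 bases for the 81 genes, against 1315 bases for all genes tested, and 46 of the 81 were under 100 bases. The shortest was that of RPS12 at 22 bases (hg19 chr6:133138682-133138703, plus strand), and the longest that of RPS3 at 17437 bases (hg19 chr11:75115910-75133346, plus strand). Each read covered 14.97 ± 0.175 T positions of its interval in PladB, 14.69 ± 0.209 in WX-02-23 and 14.80 ± 0.0809 in WX-02-43, against 14.66 ± 0.122 in DMSO; other coding genes had 24.81 ± 0.218, 24.51 ± 0.111 and 24.92 ± 0.225, against 25.22 ± 0.233 (SD, n = 3 each). Ribosomal protein genes also have many processed pseudogenes, and 27.2% ± 0.758 of their reads in PladB, 27.4% ± 0.535 in WX-02-23 and 27.4% ± 0.0899 in WX-02-43, against 27.7% ± 0.332 in DMSO, mapped to more than 1 place (SD, n = 3 each). The share split the family: 45 genes had under 10% multimapping reads and 25 had over 50%. Among the highest were RPS7 (99.8%), RPS26 (99.7%) and RPS18 (98.96%), whose values may therefore hold reads of other copies. The lowest were RPL39L (0.0335%), RPL38 (0.0525%), RPL26L1 (0.0565%), RPS21 (0.0650%) and RPLP0 (0.0683%).

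After PladB, nearly the whole family was higher in all reads. Of 81 genes tested, 75 rose and none fell, where 13.9% of all 13178 genes rose and 16.3% fell (edgeR quasi-likelihood test, adjusted p under 0.05 over all genes). The median of the 81 log2 changes was 0.54, a 1.45-fold difference, against -0.07 over all genes. The family was measured more precisely, and shares of genes called depend on precision too. The median distance from an estimate to its interval's bound was 0.175 log2 units, against 0.57 over all genes. The large subunit gave 41 of 43, the small subunit 28 of 30, the P stalk 3 of 3 and the paralogs 3 of 5. In 73 genes all 3 PladB libraries lay above all 3 DMSO libraries, which 19.1% of all genes did. These changes are relative to the other genes. With counts scaled to library size alone, the median of all genes moved to -0.32. Of the 81 genes 54 then rose and none fell, where 727 of all 13178 genes rose and 3295 fell. Of all calls in the comparison 18.1% were higher in PladB, against 46.0% under TMM scaling.

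**Figure D2:**
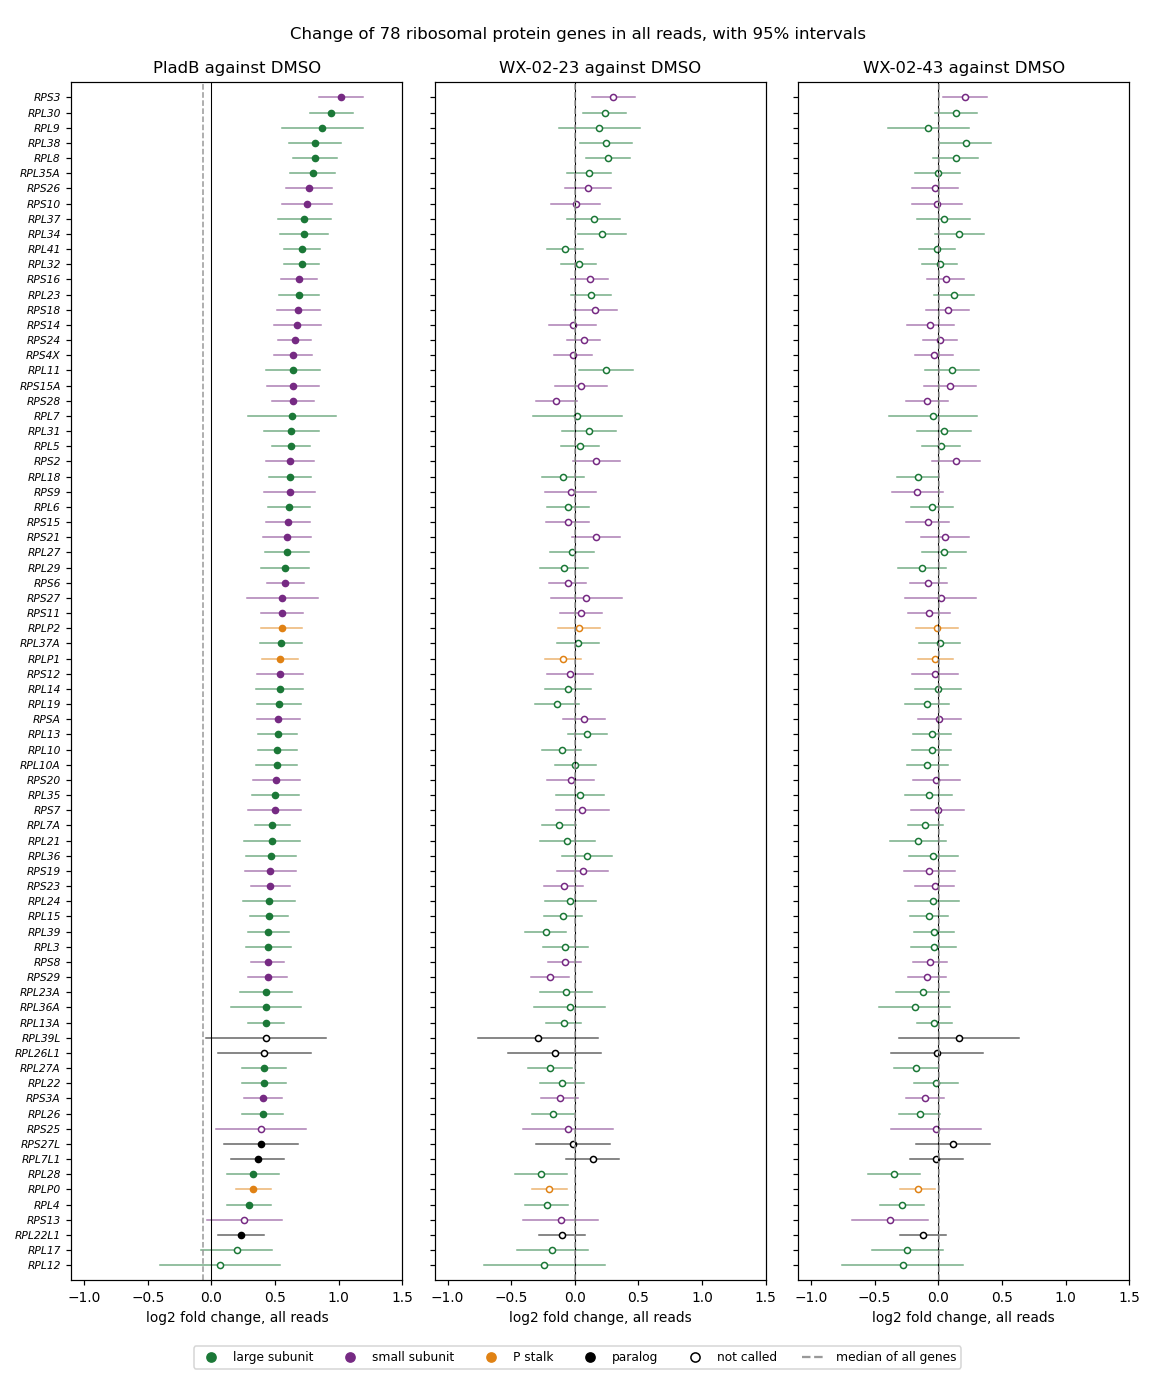
Log2 fold change in all reads of 78 tested ribosomal protein genes in the 3 comparisons with DMSO, with 95% intervals; genes are ordered by the PladB change, colours give the class, filled points were called, and the dashed line is the median of all genes. In PladB 72 of these points are filled, from 0.23 to 1.02; in the WX panels none is.

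The largest change was that of RPS3, which sits at the mRNA entry channel and is also known as a DNA repair endonuclease. Its interval of 17437 bases was the longest of the family (above), and the part of this length in the change was not tested. RPS3 had 2990, 2884 and 3292 CPM in PladB, against 1445, 1406 and 1682 CPM in DMSO. CPM are counts set to the TMM-scaled library size. The lowest PladB library was far above the highest DMSO library (log2 change 1.02 ± 0.09, where ± gives the SE; adjusted p = 8.57e-12). RPL30, a protein of the large subunit that in yeast represses splicing of its own transcript, had 5422, 5501 and 5016 CPM in PladB, against 2576, 2512 and 3202 CPM in DMSO (log2 change 0.94 ± 0.08, adjusted p = 2.23e-11). Here too every PladB library was above every DMSO library.

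RPL38, known from mouse for its part in translating Hox mRNAs, had 993, 953 and 859 CPM in PladB, against 551, 431 and 612 CPM in DMSO (log2 change 0.82 ± 0.10, adjusted p = 4.23e-08). RPL8, near the peptidyl transferase centre, had 1775, 1729 and 1590 CPM in PladB, against 945, 814 and 1139 CPM in DMSO (log2 change 0.81 ± 0.09, adjusted p = 2.17e-09). RPL35A, one of the genes mutated in Diamond-Blackfan anaemia, had 1559, 1515 and 1333 CPM in PladB, against 824, 789 and 928 CPM in DMSO (log2 change 0.79 ± 0.09, adjusted p = 4.38e-09). None of these 3 overlapped between the groups. RPL9 had few reads, 170, 175 and 134 CPM in PladB, against 81.8, 74.8 and 105 CPM in DMSO, and a log2 change of 0.87 ± 0.16. Also among the 10 largest were RPS26 at 0.77, RPS10 at 0.75 and RPL37 at 0.73; almost all reads of RPS26 were multimapping.

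Genes whose proteins have known roles outside bulk translation rose in reads with the others. No protein was measured. RPL5 had 2293, 2229 and 2058 CPM in PladB, against 1434, 1284 and 1541 CPM in DMSO (log2 change 0.63 ± 0.07). RPL11 had 526, 541 and 380 CPM in PladB, against 321, 293 and 313 CPM in DMSO (log2 change 0.64 ± 0.11). Reads of both genes, whose proteins bind 5S rRNA, were thus higher in every PladB library. RPL23, another binder of MDM2, changed by 0.69 ± 0.08, RPL26, known to bind p53 mRNA, by 0.40 ± 0.08, and RPL13A, of the interferon-induced GAIT complex, by 0.43 ± 0.07. RPS6, the substrate of the S6 kinases, had 2584, 2730 and 2578 CPM in PladB, against 1602, 1933 and 1746 CPM in DMSO (log2 change 0.58 ± 0.07). The genes of inherited or acquired anaemias RPS19 and RPS14 changed by 0.46 ± 0.10 and 0.67 ± 0.09. RPS4X, the X-linked copy of its gene, changed by 0.64 ± 0.07, RPSA, also called the laminin receptor, by 0.53 ± 0.08, and RPS27 by 0.56 ± 0.14. In the core of the large subunit, RPL3 changed by 0.45 ± 0.09 and RPL10, among the last proteins to join the subunit, by 0.52 ± 0.08. RPL39 of the exit tunnel, RPL36A and RPL41 changed by 0.45 ± 0.08, 0.43 ± 0.14 and 0.71 ± 0.07. All of these passed the threshold; RPL36A lost its call in 3 of the 6 fits that left out 1 library and RPS27 in 1.

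The P stalk, which recruits elongation factors to the ribosome, rose in all 3 genes. RPLP0, its anchor, had 4009, 4048 and 3892 CPM in PladB, against 2817, 3521 and 3174 CPM in DMSO, with a log2 change of 0.33 ± 0.07 (adjusted p = 0.000188). RPLP1 and RPLP2 changed by 0.54 ± 0.07 and 0.55 ± 0.08. RPLP0 did not overlap between groups but was among the smallest changes of the family, and with counts scaled to library size alone it was not called (0.07, adjusted p = 0.427).

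The 6 genes that did not pass had wide intervals or little signal. RPL12 had 47.3, 86.7 and 38.7 CPM in PladB, against 50.9, 58.7 and 54.8 CPM in DMSO (log2 change 0.07 ± 0.23, adjusted p = 0.869). RPL17, at the exit tunnel, had 158, 225 and 150 CPM in PladB, against 135, 159 and 171 CPM in DMSO (0.20 ± 0.14, adjusted p = 0.302). The groups overlapped in both. In PladB replicate 2 both genes stood above the other 2 PladB libraries, as did RPS13, with 196, 287 and 167 CPM in PladB, against 158, 215 and 170 CPM in DMSO, and RPS25, with 94.3, 155 and 103 CPM in PladB, against 80.3, 99.6 and 89.0 CPM in DMSO. RPS13, RPS25 and RPL17 had over 90% multimapping reads and RPL12 18.5%; the part of multimapping in this was not tested. The paralogs RPL26L1 (0.42 ± 0.18, adjusted p = 0.0782) and RPL39L (0.43 ± 0.23, adjusted p = 0.171) completed the 6.

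Some of the paralogs replace their parent protein in certain ribosomes or tissues. RPL22L1 had 592, 632 and 544 CPM in PladB, against 474, 544 and 485 CPM in DMSO, with a log2 change of 0.23 ± 0.09 (adjusted p = 0.0427). The lowest PladB value barely exceeded the highest DMSO value, the call was lost in 4 of 6 fits that left out 1 library, and the change was -0.0217 (adjusted p = 0.894) with counts scaled to library size alone. Its parent RPL22 had 734, 713 and 721 CPM in PladB, against 525, 538 and 568 CPM in DMSO (0.41 ± 0.09, adjusted p = 0.000215). RPS27L, known as a p53 target, had 177, 199 and 132 CPM in PladB, against 136, 100 and 152 CPM in DMSO (0.39 ± 0.14, adjusted p = 0.0363), and RPL7L1 changed by 0.36 ± 0.10. The RPS27L groups overlapped, and its call was also lost in 4 of 6 such fits.

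**Figure D3:**
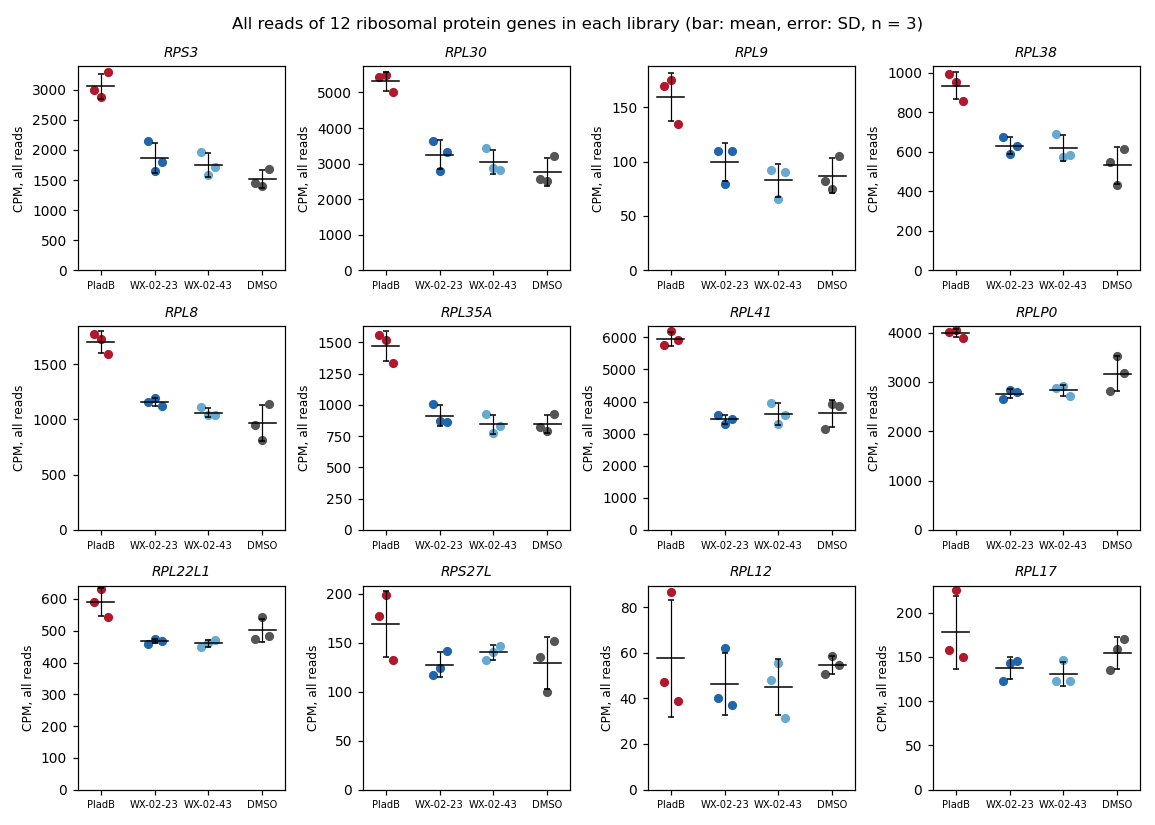
CPM of all reads in each library for 12 ribosomal protein genes, by group, with the mean and SD over 3 libraries; each axis starts at 0. The first 8 genes separate PladB from DMSO completely, whereas RPL12 and RPL17 overlap.

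Across the 81 genes the rank of the PladB change had little relation to that of other features, as a description of genes that share the same libraries. Spearman's rho was -0.10 with interval length, -0.17 with multimapping share, 0.29 with the DMSO level, 0.04 with the DMSO labelled share and -0.04 with the number of exons (GENCODE 29, 78 genes). Pearson's r was 0.19, -0.14, 0.27, 0.26 and -0.11 in the same order. The 9 genes with over 10% labelled share in DMSO (below) gave 9 higher and a median of 0.73. The other 72 gave 66 higher and a median of 0.53. The 45 genes with under 10% multimapping reads gave 43 higher and a median of 0.59, and the 25 with over 50% gave 22 higher and a median of 0.52. With multimapping reads left out for every gene, 66 of 81 rose and none fell, where 13.7% of 13134 genes rose and 16.2% fell.

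T>C reads, which include those with the label of the last hour, showed the same direction in fewer genes. Of 81 genes, 29 rose and none fell in PladB, where 4.72% of 10722 genes rose and 5.9% fell. All 29 had also risen in all reads, of which T>C reads are a subset. The median change was 0.67 for the family, against -0.36 over all genes. Precision again differed, with a median distance from estimate to bound of 0.57 log2 units in the family, against 2.09 over all genes. By class these were 14 of 43 large-subunit genes, 13 of 30 small-subunit genes, 2 of 3 P stalk genes and 0 of 5 paralogs. In 44 of 81 genes the groups did not overlap and PladB was higher, which 10.4% of all genes showed. TMM sets these values against the T>C reads of other genes, which were fewer in PladB. Scaled instead to all reads, 10 of the 81 genes rose and none fell, where 0.793% of all genes rose and 16.3% fell. The median of the family was then -0.12 and that of all genes -1.15. Of all calls 4.63% were higher in PladB, against 44.4% under TMM scaling.

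The largest T>C change belonged to RPL38, with 2585, 2630 and 2359 CPM of T>C reads in PladB, against 681, 637 and 960 CPM in DMSO (log2 change 1.73 ± 0.15, adjusted p = 7.93e-11). RPL34 had 3804, 3459 and 3279 CPM in PladB, against 1102, 748 and 1414 CPM in DMSO (1.69 ± 0.15, adjusted p = 1.59e-10). In both the lowest PladB library had more than the highest DMSO library by a wide gap. Also among the 10 largest were RPL35A at 1.59 ± 0.14, RPS21 at 1.56 ± 0.16, RPL30 at 1.55 ± 0.10, RPL11 at 1.52 ± 0.40, RPL5 at 1.51 ± 0.15, RPL27 at 1.45 ± 0.17 and RPL23 at 1.35 ± 0.19. Over 10% of the DMSO reads of RPL38, RPL34, RPL35A, RPS21 and RPL30 were T>C reads. In such genes labelling and a base difference of the cell line cannot be told apart (below).

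RPL5 had 2582, 2376 and 2330 CPM of T>C reads in PladB, against 885, 675 and 990 CPM in DMSO. RPL11 had far fewer, 234, 203 and 281 CPM in PladB, against 64.0, 60.9 and 125 CPM in DMSO, and lost its call without DMSO replicate 1 (adjusted p = 0.0534) or replicate 2 (adjusted p = 0.0506). RPLP0 and RPLP1 were called at 0.74 ± 0.14 and 1.21 ± 0.16, and RPLP2 was not (0.67 ± 0.29, adjusted p = 0.147). RPS3, first in all reads, was not called in T>C reads (0.45 ± 0.30, adjusted p = 0.378).

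**Figure D4:**
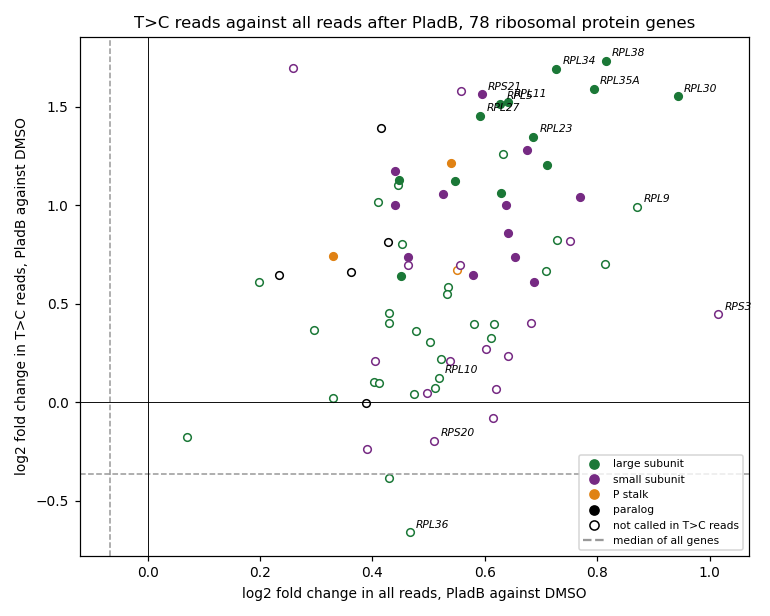
Log2 fold change in T>C reads against that in all reads, PladB against DMSO, for 78 ribosomal protein genes; colours give the class, filled points were called in T>C reads and dashed lines are medians of all genes. RPL38 and RPL34 lie at the top, while RPS3 has the largest change in all reads and 0.45 in T>C reads.

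The labelled share, T>C reads as a percent of a gene's reads, was lower in the family than in other genes in every library. Summed over members it was 3.66%, 3.48% and 3.31% in PladB, 4.44%, 4.26% and 4.53% in WX-02-23, and 4.37%, 4.18% and 4.17% in WX-02-43, against 4.22%, 3.83% and 4.31% in DMSO. Other coding genes had 5.70% ± 0.195 in PladB, 10.2% ± 0.226 in WX-02-23 and 9.59% ± 0.308 in WX-02-43, against 9.98% ± 0.442 in DMSO (SD, n = 3 each). The PladB share was thus 0.845 of the DMSO share for the family and 0.571 of it for other genes. Among members this ratio was 0.906 for the 45 genes with under 10% multimapping reads and 0.643 for the 25 with over 50%. The genes named below with over 10% labelled share in DMSO all fell in the first set. The part of multimapping in these ratios was not tested. T positions of the interval covered per read were fewer in the family (above). They bound only the conversions counted in the interval, and their part in the lower share was not tested.

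Gene by gene, the labelled share fell in 33 of 81 members after PladB and rose in none, where 12% of 9958 genes fell and 0.0301% rose (edgeR on T>C and other reads of each library). The median change of the odds of a T>C read was -0.73 on the log2 scale, against -1.26 over all genes. The fall was thus smaller in the median member than in the median gene. Members were measured more precisely, with a median distance of 0.52 log2 units from the estimate to its interval's bound, against 2.32 over all genes. The shares of genes called depend on this precision as well as on the fall, so they do not show a more frequent fall in the family. In a fit that sets each gene against the typical gene, the direction turned: 18 members were called higher and none lower, where 1.38% of all genes were higher. The count of 33 was 20 without DMSO replicate 1, 20 without DMSO replicate 2 and 19 without DMSO replicate 3, and 13 genes were called in all 6 fits that left out 1 library.

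The largest fall was in RPL36, with 0.303%, 0.425% and 0.309% in PladB, against 1.47%, 1.10% and 1.38% in DMSO (log2 odds change -1.95 ± 0.25, adjusted p = 0.00058). RPS3 had 0.590%, 0.539% and 0.469% in PladB, against 1.66%, 1.10% and 1.35% in DMSO (-1.36 ± 0.16, adjusted p = 0.000308). RPS2, of the mRNA entry channel, had 0.621%, 0.908% and 0.539% in PladB, against 1.91%, 1.89% and 1.60% in DMSO (-1.43 ± 0.18, adjusted p = 0.000547). None of these 3 overlapped between groups. Multimapping reads were 88.3% in RPS2, 10.7% in RPL36 and 0.114% in RPS3. RPS20, with 1.86%, 0.243% and 0.843% in PladB, against 2.82%, 2.02% and 3.50% in DMSO, was much less even (-1.82 ± 0.53, adjusted p = 0.0419). Also among the 10 largest were RPS9 (-1.51), RPL10 (-1.33), RPL10A (-1.31), RPS7 (-1.28) and RPL13 (-1.26). These calls were less stable: of the 6 fits that left out 1 library, RPS20 lost its call in 5, RPS9 and RPL10 in 4, RPL10A and RPL13 in 3 and RPS7 in 2. Without PladB replicate 2 the change was -0.78 for RPL10 and -1.12 for RPS20.

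The 5 lowest shares in DMSO were those of RPS27 (0.819% ± 0.344), RPL3 (0.829% ± 0.383), RPS24 (1.10% ± 0.133), RPL36 (1.32% ± 0.193) and RPL17 (1.35% ± 1.29; SD, n = 3 each). None of these neighbours in the order differ beyond their spread. Most reads of RPS27 (96.2%), RPL3 (97.8%) and RPL17 (93.5%) were multimapping, against 10.7% for RPL36 and 0.192% for RPS24. At the other end, 9 genes had over 10%, a line drawn after the values were seen. Among them were RPL30 (17.0%), RPL31 (15.7%), RPL9 (14.9%), RPL35A (13.9%), RPL38, RPS29, RPS21 and RPL34. The next, RPL7L1, had 8.30% of its summed DMSO reads, and RPL34, the last above the line, 10.9%.

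In none of these 9 genes was the share called lower after PladB, but they were not alike. RPL38 had 14.6%, 15.2% and 14.4% in PladB, against 12.1%, 13.5% and 14.996% in DMSO. RPS29 had 12.7%, 11.8% and 10.3% in PladB, against 12.9%, 12.1% and 11.2% in DMSO. The groups overlapped in both. RPL9 had 9.78%, 7.92% and 10.7% in PladB, against 16.02%, 13.4% and 15.3% in DMSO, without overlap. RPL30 and RPL31 were also lower in all 3 PladB libraries, so that 3 of the 9 separated, where 33.9% of all genes did. All 33 called members were among the other 72. Summed, the 9 had 15.1% ± 0.710 in PladB, against 15.2% ± 0.809 in DMSO, and the other 72 genes 1.87% ± 0.0719 in PladB, against 2.74% ± 0.111 in DMSO (SD, n = 3 each). The ratios to DMSO were 0.993 and 0.682, against 0.571 for other coding genes. Of the 9 genes, 8 were among the 29 that rose in T>C reads.

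The conversions behind these reads differed too. RPS21 had 0.965, 0.953 and 0.966 conversions per T>C read in PladB, against 0.954, 0.991 and 1.07 in DMSO. RPL30 had 0.640, 0.607 and 0.617 in PladB, against 0.572, 0.622 and 0.675 in DMSO, and RPS29, 0.134, 0.176 and 0.154 in PladB, against 0.246, 0.242 and 0.201 in DMSO. A T>C read holds at least 1 conversion, so a value under 1 means that conversions counted in the interval leave out some of those that made its reads T>C reads. In DMSO 34 of the 81 genes were under 1. The files give no position for a conversion, and every library analysed here had received 4-thiouridine. A base difference of the cell line at 1 site and labelling therefore cannot be told apart in these genes.

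**Figure D5:**
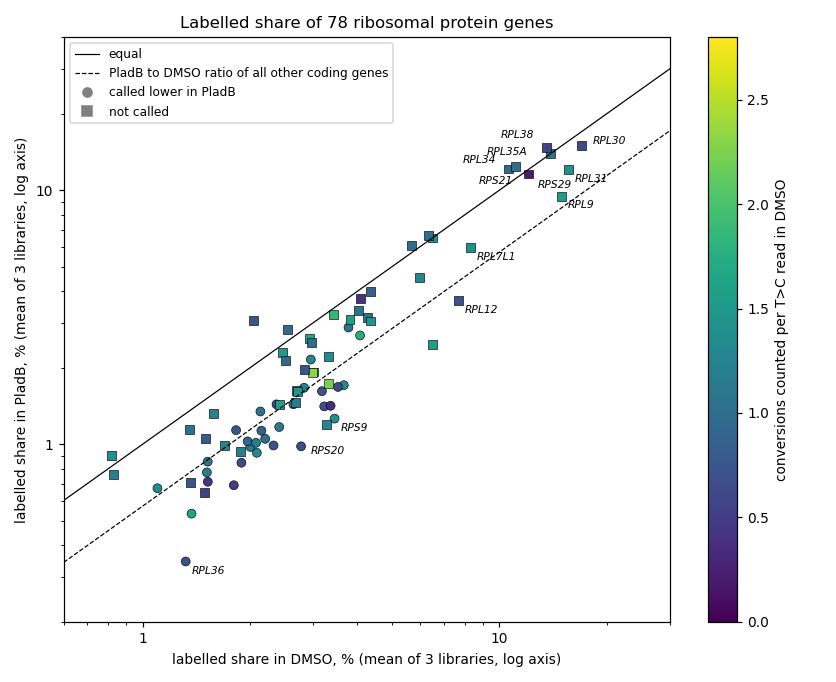
Labelled share of 78 ribosomal protein genes in PladB against DMSO (means of 3 libraries, log axes), coloured by conversions per T>C read in DMSO; circles were called lower, the solid line marks equal shares and the dashed line the ratio of all other coding genes. Of the genes over 10% in DMSO, RPL38 lies near the solid line and RPL9 lower, and RPL36 lies below the dashed line.

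Summed over the family, conversions per T>C read were 0.854 ± 0.00747 in PladB, 1.02 ± 0.0274 in WX-02-23 and 1.12 ± 0.0200 in WX-02-43, against 0.956 ± 0.00804 in DMSO (SD, n = 3 each). The 4 groups did not overlap. Other coding genes ranked the groups alike, with 1.43 ± 0.0297, 2.03 ± 0.00914 and 2.46 ± 0.00388, against 1.85 ± 0.0356. Gene by gene, among 70 members with at least 20 T>C reads in every library, PladB was below DMSO without overlap in 19, where 34.8% of 3151 genes were, and above it in 3, where 0.571% were. WX-02-43 was above DMSO without overlap in 28 of the 70 members, where 38.1% of genes were, and WX-02-23 in 15 (21.4%), where 13.9% were. The share of members for WX-02-43 was thus near that of all genes.

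Beyond these conversions, no ribosomal protein gene was called after either WX compound in all reads, T>C reads or the labelled share. In all reads no member passed in WX-02-23 against DMSO, where 0.698% of genes did, nor in WX-02-43 against DMSO, where 0.167% did. At an unadjusted p under 0.05 there were 13 and 6 of 81, against 8.7% and 5.86% of all genes. DESeq2 called 1 in each, RPS3 higher with WX-02-23 (0.31, adjusted p = 0.0477) and RPL4 lower with WX-02-43 (-0.28, adjusted p = 0.0398). The median changes were -0.02 and -0.03. The 95% interval lay within 0.5 log2 units of 0 for 77 genes with WX-02-23 and 76 with WX-02-43, so that for these larger differences lay outside the interval.

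RPS3 gave the smallest p with WX-02-23, at 2141, 1644 and 1808 CPM in WX-02-23, against 1445, 1406 and 1682 CPM in DMSO (log2 change 0.30 ± 0.08, adjusted p = 0.0991 in edgeR). One WX-02-23 library lay below the highest DMSO library. With WX-02-43 it was RPL28, with 398, 452 and 477 CPM in WX-02-43, against 511, 622 and 554 CPM in DMSO (-0.35 ± 0.10, adjusted p = 0.302). There the groups did not overlap. RPL4, a protein of the exit tunnel, changed by -0.28 ± 0.08 with WX-02-43 (adjusted p = 0.326).

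In T>C reads no member passed either, where 0.224% of genes did with WX-02-23 and 0.0933% with WX-02-43; 11 and 5 members had an unadjusted p under 0.05, against 4.54% and 3.81% of genes. RPL38 came nearest in both, with 1105, 1211 and 990 CPM in WX-02-23 and 1187, 1054 and 1045 CPM in WX-02-43, against 681, 637 and 960 CPM in DMSO. Every library of both compounds lay above DMSO, at changes of 0.54 ± 0.15 (adjusted p = 0.25) and 0.53 ± 0.15 (adjusted p = 0.383); both comparisons use the same 3 DMSO libraries. DESeq2 called 2 members with WX-02-23 and 1 with WX-02-43, RPL38 in both (adjusted p = 0.00998 and 0.0494). In the labelled share no member passed, where 0.01% and 0% of genes did, and 6 and 1 members had an unadjusted p under 0.05, against 3.59% and 3.24% of genes.

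Set against each other at the same dose and time, the 2 WX compounds gave no called member in any measure. In all reads 0.152% of genes were called, in T>C reads 0.0466% and in the labelled share 0%. DESeq2 called no member in all reads or T>C reads, and 1, 3 and 5 members had an unadjusted p under 0.05, against 5.51%, 2.85% and 3.05% of genes. The median difference in all reads was 0.03 and the interval lay within 0.5 log2 units of 0 for 76 of 81 genes. The smallest p belonged to RPL39, with a difference of -0.20 ± 0.08 (adjusted p = 0.802). For T>C reads the interval was that narrow in 20 genes only, with a median distance of 0.57 log2 units from the estimate to its bound. PladB and the WX compounds were given at different doses and were not compared.

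Of the pathway around the family, the 22 other genes with TOP mRNAs gave 20 higher and none lower in all reads after PladB, with a median of 0.47; over all genes 13.9% were higher and 16.3% lower. Translation factors, including EEF1A1 and EEF2, make up most of this list. HNRNPA1, an RNA-binding splicing regulator, changed most (0.79 ± 0.08). Among 78 mitochondrial ribosomal protein genes 29 were higher and 4 lower, with a median of 0.27, and MRPL2 (-1.25 ± 0.37) and MRPL46 (-1.24 ± 0.27) fell most. Of 15 regulators 2 were higher and 3 lower, shares near those of all genes. TSC1, which restrains mTOR, and RPTOR, the mTOR complex 1 scaffold, changed by -2.20 ± 0.34 and -1.95 ± 0.53, and MAF1, a repressor of RNA polymerase III, by 0.77 ± 0.12. Chaperones and importers gave 3 higher and 3 lower of 17, also near the shares of all genes. LTV1, a 40S assembly factor, changed by -1.63 ± 0.24. Of this list NACA, BTF3 and NAP1L1 are also among the 22 TOP genes, so they count in both lists.

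In T>C reads 6 of the 22 TOP genes, 7 of the 78 mitochondrial genes, 2 of the 15 regulators and 4 of the 17 chaperones were higher in PladB, and 2 chaperones were lower, where 4.72% of all genes were higher and 5.9% lower. MAF1 (1.64 ± 0.26), MRPS34 (1.59 ± 0.37) and HNRNPA1 (1.55 ± 0.23) rose most. The labelled share fell in 10 of 22 TOP genes, 7 of 77 mitochondrial genes, 1 of 15 regulators and 4 of 17 chaperones, where 12% of all genes fell. The TOP genes too were measured more precisely, with a median distance from estimate to bound of 0.55 log2 units, against 2.32 over all genes. The largest falls were those of MRPL58 (-4.51 ± 1.19), MRPL24 (-3.19 ± 0.50) and MRPL21 (-3.19 ± 0.95). With WX-02-23, EEF1A1 (-0.28 ± 0.07, adjusted p = 0.0229) and TPT1 (-0.27 ± 0.07, adjusted p = 0.0383), both TOP genes, were lower in all reads. So was MRPL13 (-0.62 ± 0.15, adjusted p = 0.0282), and no other list member was called with either WX compound. Almost all reads of EEF1A1 were multimapping (99.1% in WX-02-23 and in DMSO), against 1.83% and 1.16% for TPT1.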

How the data were processed

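Per the file headers, slamdunk 0.4.3 made the tables, 1 line for each 3′ UTR interval or spike-in; the submitters' processing notes name hg19. The authors deposited, per interval, counts of reads, T>C reads, multimapping reads, covered T positions and conversions, a CPM value and a conversion rate as a fraction; only the counts were used. Intervals of a gene that overlap were counted once, by the non-overlapping set with most reads; 45 names turned into dates by a spreadsheet were looked up and 44 restored. The 709 spike-in intervals held 20 reads over the 12 libraries and could not scale them. Depth sets the precision of each value: 12333255 to 21417549 coding reads per library.

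All reads and T>C reads were tested with edgeR 4.0.16 (TMM, filterByExpr, quasi-likelihood, Benjamini-Hochberg) in R 4.3.3 on all coding genes and 12 libraries, with group alone. The labelled share was tested as the odds of a T>C read against other reads of the same library, with library as a block, for genes with at least 20 reads in every library and 10 T>C reads in all. Both fits were tested on simulated data. Sums over members carry no test. DESeq2 1.42.0, other scalings, filters, interval sums, the replicate block and leaving out each library were alternatives; scaling to library size alone was added after seeing the data. Named genes were, per measure, the 10 largest called changes, the 5 highest and lowest in labelled share, reads and multimapping, and members fixed by role. RPL9 and RPL31 beside the labelled share were picked after their values were seen. Results for some items that the rule names are not reported here. Members and lists were chosen with earlier results of these data known.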

Additional observations from a re-analysis of the deposited data

How the results depend on the processing

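In PladB against DMSO, the 75 members called in all reads were 69 to 76 with 1 library left out, and 68 were called in all 6 such fits; the 29 called in T>C reads were 23 to 30, with 23 called in all 6. The labelled share count of 33 lower was 19 to 27 with 1 library left out. Scaled to all reads, 10 members were called in T>C reads, and set against the typical gene 18 members were called in the labelled share, all higher instead of lower. RPL22L1 in all reads reversed to -0.0217 with library size scaling alone. In WX-02-23 against DMSO the count of 0 in all reads was 0 to 3 with 1 library left out (3 without DMSO replicate 3, 2 without DMSO replicate 1), and 1, RPS3 each time, with DESeq2, no filter on low counts or the replicate block; library size scaling alone also gave 1. In T>C reads it was 0 to 2 (2 without DMSO replicate 3) and 2 with DESeq2. In WX-02-43 against DMSO it was 1 with DESeq2 in all reads, and 0 to 2 in T>C reads (2 without DMSO replicate 3) and 1 with DESeq2. The cause of these moves was not tested. Same-numbered libraries did not deviate together (correlations from -0.03 to 0.04), so the numbers are not taken to pair them; the replicate block gave 75 and 27 members in PladB, in all reads and T>C reads. The family's part of coding reads, 2.43 percentage points higher in PladB than in DMSO, was 2.05 without multimapping reads. Short intervals and few T>C reads limit the precision for single members.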
